A study of Mus musculus with 9 samples.

Results

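Sparc, Lama1, Lamb1, Lamc1, Col4a1, Col4a2, Nid1, Hspg2, Thbd and Plat encode proteins of the basement membrane or markers of parietal endoderm, and they were followed through 3 pools of mouse embryos at embryonic day 7.5. All probe sets whose single symbol in the platform annotation was 1 of these 10 genes were taken, which gave 17 of 36701 probe sets. Of these, 13 lay on the array design called A here, 1 on design B and 3 on design C (Affymetrix murine genome U74 version 2). The first pool held about 50 embryos lacking beta-catenin (gene Ctnnb1) conditionally, through Cre recombinase expressed from the cytokeratin 19 promoter, so that deletion is limited to cells that use this promoter. It is called the knockout. The second pool carried 1 floxed and 1 deleted beta-catenin allele, and the third carried 1 wild-type and 1 floxed allele. They are called floxed/deleted and wild type/floxed and served as controls. The labels leave out whether the control pools carried Cre and how many embryos each held. Total RNA of each genotype was put on 1 array of each design, so every value below is 1 measurement, without a replicate, an error or a test.

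A basement membrane is a thin sheet of matrix on which epithelia rest. Laminin trimers of an alpha, a beta and a gamma chain and collagen IV trimers form its networks, which nidogen and the proteoglycan perlecan connect. In the mouse embryo at this stage such a sheet separates the visceral endoderm from the epiblast. The parietal endoderm, which faces the trophoblast, secretes Reichert's membrane, a very thick basement membrane rich in these same proteins.

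Signals are linear intensities that the authors had already brought to a common level. With 2% of values trimmed at either end, the 9 arrays had means of 150.0 to 150.1. Signals below the median of a design, called the floor, were set to it before log2 differences and folds were taken. The floor was 57.3 for design A, 90.0 for B and 80.9 for C. It is a rule and not a detection limit, and the signals printed below are those before it was applied. A probe set counts as measured where 1 or more of its 3 signals lay above the floor. The standard deviation between the control pools, over probe sets above the floor in every pool, was 0.40 on the log2 scale for design A, 0.54 for B and 0.82 for C, which makes a difference on design C the least certain. Ctnnb1 itself had a signal of 1376 in the knockout, 1509 for floxed/deleted and 1773 for wild type/floxed. Which part of the gene its probe set covers is not stated, so the value is a weak check of the labels. The ratio of the 5′ to the 3′ probe set of beta-actin, a sign of RNA integrity, was 0.570 in the knockout, 0.655 for floxed/deleted and 0.696 for wild type/floxed on design A.

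Of the 17 probe sets, 12 were measured and 9 lay above the floor on all 3 arrays. The 12 covered 8 genes. Nid1 and Thbd were below the floor in every pool. With each gene taken by its brightest measured probe set, 1 of 8 genes was at least 1.5-fold higher in the knockout than in both controls, against 6.44% of all 12439 measured genes. None was as far below both controls, against 5.68%. The floxed/deleted pool had 1 gene that far below both others (5.52% of all genes) and 0 above both (7.49%). The wild-type/floxed pool had 0 above (6.66%) and 0 below (5.56%). Sparc was the gene in both cases. A single gene of 8 is close to these backgrounds, and the counts alone set the genes apart from no others.

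**Figure D1:**
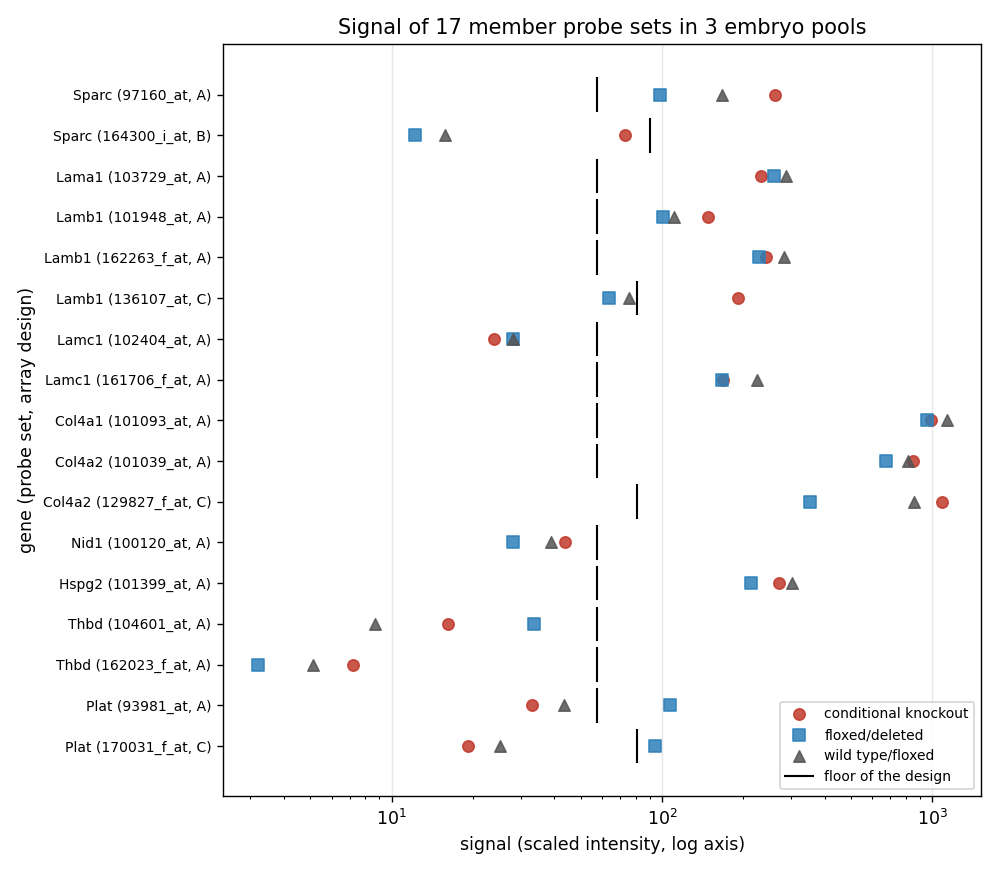
Signal of the 17 probe sets (rows, with probe set and array design) in the conditional knockout, floxed/deleted and wild-type/floxed pools, on a log axis of scaled intensity; each point is 1 array and the black bar is the floor of the design. Sparc runs from 98.4 to 262 on design A, Col4a1 stays between 954 and 1132, and both Thbd probe sets and Nid1 lie left of the floor in every pool.

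Sparc encodes a collagen-binding matrix protein (osteonectin, BM-40) that parietal endoderm makes in large amounts. On design A its probe set 97160_at had a signal of 262 in the knockout, 98.4 for floxed/deleted and 167 for wild type/floxed. The knockout was thus 1.57-fold above wild type/floxed and 2.67-fold above floxed/deleted. Floxed/deleted was 1.70-fold below wild type/floxed, so the controls differed by more than the knockout did from the nearer of them. On design A, 3.23% of measured probe sets were at least 1.5-fold higher in the knockout than in both controls, and 2.66% were as far lower in floxed/deleted than in both others. The log2 difference of the knockout from the mean of the controls was 1.03. It lay above 99.5% of design A probe sets above the floor in every pool. The difference between the controls, -0.77, lay above 2.82% of them. A second probe set on design B, 164300_i_at, had signals of 72.8, 12.2 and 15.7 in the same order of pools. All 3 are below the floor of 90.0, so this probe set gives no comparison.

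The sequence upstream of Sparc is shown because this gene had the widest spread among the member probe sets above the floor in every pool of design A. It comes from RefSeq, build GRCm38.p6, and covers the 250 bases before the start site, at chr11:55420081-55420330 on the minus strand, written 5′ to 3′. Upstream windows were held for 6 of the 10 genes. They were searched on both strands for the GATA factor motifs AGATAA and also TGATAA, for the Tcf/Lef motif CTTTGA, for the nuclear receptor motif AGGTCA, for the GC box GGGCGG and for the CCAAT box, and matches are in capitals. None of these motifs overlapped another where found. The Sparc window held none of them.
Sparc: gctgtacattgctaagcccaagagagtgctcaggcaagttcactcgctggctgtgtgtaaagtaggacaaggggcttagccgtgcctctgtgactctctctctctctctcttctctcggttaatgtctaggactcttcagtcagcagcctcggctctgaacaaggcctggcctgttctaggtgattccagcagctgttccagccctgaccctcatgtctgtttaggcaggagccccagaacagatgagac

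Laminin 111, the laminin of the earliest embryonic basement membranes, is made of the alpha 1, beta 1 and gamma 1 chains. Lama1, which encodes the alpha 1 chain, had a signal of 233 in the knockout, 259 for floxed/deleted and 287 for wild type/floxed. It was the 1 gene of the set whose lowest value above the floor was in the knockout, 1.11-fold below the nearer control, which is a smaller step than the standard deviation between the controls on that design.

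Lamb1, the beta 1 chain, was the gene with the most probe sets, and they did not agree. The probe set 101948_at on design A had signals of 148 in the knockout, 101 for floxed/deleted and 110.5 for wild type/floxed, so that the knockout was 1.34-fold above the nearer control. On design C, 136107_at had 192 in the knockout, with 63.6 and 75.5 in the controls, both below the floor. Here the knockout was at least 2.37-fold higher than both, a step that 11.9% of measured probe sets on design C reached in that direction at 1.5-fold or more. The brightest probe set, 162263_f_at on design A, had 243 in the knockout, 228 for floxed/deleted and 283 for wild type/floxed, and there the knockout lay between the controls. Its suffix f is the manufacturer's mark for sequence that is similar in more than 1 gene. The design C probe set was measured only through the knockout, where it is high, so that 101948_at and 162263_f_at are the Lamb1 probe sets that compare all 3 pools, and they place the knockout differently.

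The upstream window of Lamb1 is shown beside that of Sparc. The choice rested on 136107_at, the only Lamb1 probe set at least 1.5-fold higher in the knockout. As it was measured only through the knockout, the choice is no evidence that the genes are alike. The Lamb1 window lies at chr12:31265043-31265292 on the plus strand of the same build. It held 1 CCAAT and 2 GC boxes, read on the opposite strand.
Lamb1: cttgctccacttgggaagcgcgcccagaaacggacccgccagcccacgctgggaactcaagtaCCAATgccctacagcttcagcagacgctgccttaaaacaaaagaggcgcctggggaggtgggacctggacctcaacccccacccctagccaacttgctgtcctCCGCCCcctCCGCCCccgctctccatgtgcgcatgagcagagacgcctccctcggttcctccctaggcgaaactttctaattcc

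Across the 6 windows (Sparc, Lamb1, Col4a1, Col4a2, Nid1 and Hspg2), GGGCGG was found in 4 and CCAAT in 4. Among all 32851 windows, 32.7% held GGGCGG and 33.8% held CCAAT. The bases G and C made up 54% to 74.4% of the 6 windows, against a median of 52.4% over all windows. The shares given here are not matched for this. None of the 6 held either GATA factor motif, of which AGATAA is in 9.99% of all windows and the other in 7.94%. None held the Tcf/Lef motif, found in 13.8% of all, or the nuclear receptor motif, found in 14.02%. These matches describe letters in the windows and not binding.

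Lamc1, the gamma 1 chain, was measured by 1 of its 2 probe sets. This one, 161706_f_at, carries the mark for similar sequence and had signals of 168 in the knockout, 166.5 for floxed/deleted and 225 for wild type/floxed. The knockout and floxed/deleted were alike within 1.01-fold and wild type/floxed was 1.34-fold above the nearer of them. The other, 102404_at, had 24.0, 28.2 and 28.2, all below the floor. On the brightest probe set of each gene, the knockout was lowest for Lama1 and lay between the controls for Lamb1 and Lamc1, the latter both on marked probe sets.

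Col4a1 and Col4a2 encode the chains of the common collagen IV trimer, and lie head to head on the same chromosome. Col4a1 had a signal of 986 in the knockout, 954 for floxed/deleted and 1132 for wild type/floxed on design A. The whole range was 1.19-fold, the narrowest of the genes above the floor in all pools. Col4a2 on design A had 851 in the knockout, 677 for floxed/deleted and 817 for wild type/floxed. The knockout was 1.04-fold above the nearer control, and floxed/deleted was 1.21-fold below the nearer pool.

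On design C a second Col4a2 probe set, 129827_f_at, had 1089 in the knockout, 353 for floxed/deleted and 860 for wild type/floxed. The order of the pools was that of design A, but floxed/deleted was 2.43-fold below the nearer pool, as against 1.21-fold there. A step of 1.5-fold or more in that direction was seen for 8.75% of measured probe sets on design C. The knockout was 1.27-fold above wild type/floxed. Neither collagen IV gene was thus 1.5-fold from both controls in the knockout on any probe set.

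The start sites that RefSeq gives for this pair lie on opposite strands, and the transcripts, which run away from each other, share 22 bases at chr8:11312805-11312826 of GRCm38.p6. They are shown on the plus strand, in the direction of Col4a2, because both genes start there, and the GC box is in capitals.
Col4a1 and Col4a2: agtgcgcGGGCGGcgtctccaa

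Nid1 encodes nidogen 1, which links laminin to collagen IV. Its only probe set had 43.7 in the knockout, 28.2 for floxed/deleted and 38.9 for wild type/floxed, all below the floor, and gives no comparison. Hspg2 encodes the core protein of perlecan, the heparan sulfate proteoglycan of basement membranes. It had 272 in the knockout, 213 for floxed/deleted and 304 for wild type/floxed. The knockout lay between the controls, which were 1.42-fold apart.

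Thbd encodes thrombomodulin, the thrombin receptor of endothelium that parietal endoderm and trophoblast giant cells also carry. Its probe sets had signals of 16.1 in the knockout, 33.7 for floxed/deleted and 8.7 for wild type/floxed, and of 7.2, 3.2 and 5.1. None reached the floor and the probe sets ordered the pools differently. Plat encodes tissue plasminogen activator, a protease that parietal endoderm secretes. On design A it had 33.1 in the knockout, 107 for floxed/deleted and 43.6 for wild type/floxed. On design C it had 19.2, 94.2 and 25.2. Floxed/deleted was the only pool above the floor on either design, by at least 1.86-fold on A and at least 1.16-fold on C. A step of 1.5-fold or more in that direction was seen for 4% of measured probe sets on design A. Plat was measured only through that pool, where it is high.

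Position among the pools was more even than the counts of large steps. Of the 9 probe sets above the floor in every pool, 8 were lowest in floxed/deleted by any amount, against 34.1% of all 12786 such probe sets. They covered Sparc, Lamb1, Lamc1, Col4a1, Col4a2 and Hspg2, and the exception was Lama1. All 9 were lower in floxed/deleted than in wild type/floxed, against 50.5% of all. The steps were mostly small. On design A they ran from a log2 difference of -0.13 for Lamb1 to -0.77 for Sparc, and only those of Sparc, Hspg2 and Lamc1 exceeded the standard deviation of 0.40. The knockout was highest for 4 of the 9, namely Sparc, 1 Lamb1 and both Col4a2 probe sets, against 34.5% of all, and wild type/floxed was highest for the other 5. Probe sets of 1 gene are not independent, the genes can vary together within a pool, and each array is a single sample.

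Over the 8 measured genes, the median log2 difference between floxed/deleted and wild type/floxed was -0.29, and 7 of the 8 were below 0, the exception being Plat. Plat was measured only through floxed/deleted, so it could not be below 0. The median over all measured genes was 0, and the share of them below 0 was not counted. Of all probe sets above the floor in every pool, 50.5% were below 0. The median of the knockout minus the mean of both controls was -0.07, with a range from -0.23 for Lama1 to 1.03 for Sparc, beside -0.02 over all genes. Taken apart, it was 0.07 against floxed/deleted and -0.18 against wild type/floxed. These comparisons share pools, so they are not independent of one another. In pooled whole embryos, fewer cells of a type and less RNA per cell cannot be told apart.

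**Figure D2:**
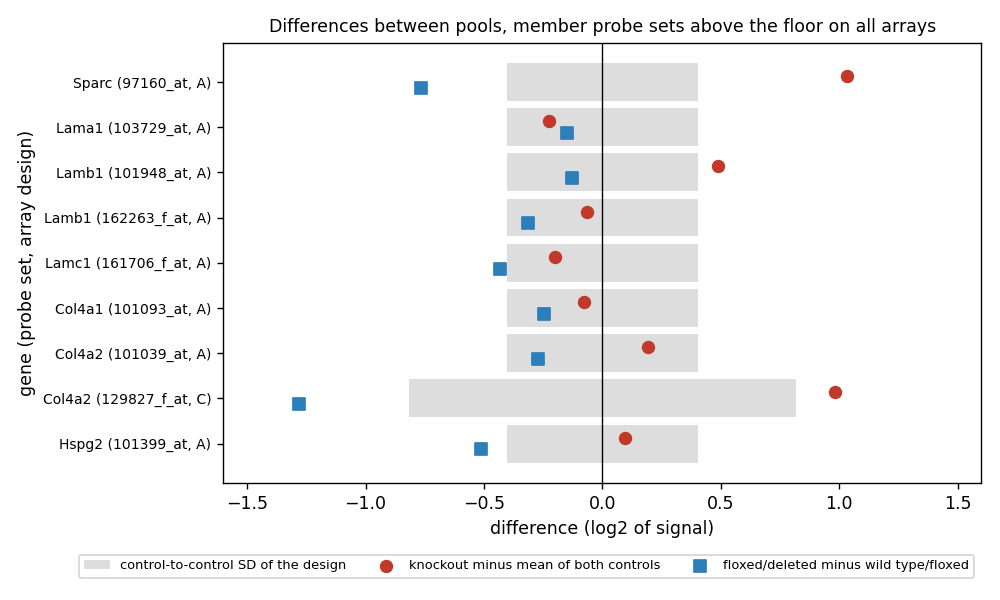
Log2 differences of the 9 probe sets with all 3 signals above the floor; circles are the knockout minus the mean of both controls, squares are floxed/deleted minus wild type/floxed, and the grey band is 1 standard deviation of the difference between the controls on that design (0.40 on A, 0.82 on C). All 9 squares lie left of 0, while the circles lie on both sides, with Sparc at 1.03.

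Of 29 other genes of basement membrane proteins, 27 had a probe set and 18 were measured. In the knockout 0 of the 18 were at least 1.5-fold above or below both controls, where 6.44% and 5.68% of all genes were, so a count of 0 is near the background. Lama5, the laminin alpha 5 chain, had 421 in the knockout, 419 for floxed/deleted and 429 for wild type/floxed. Nid2, which encodes the second nidogen, had 216, 188 and 257, so floxed/deleted was lowest as it was for most of the 10 genes. In all, 13 of the 18 were lower in floxed/deleted than in wild type/floxed, with a median of -0.18. Of all probe sets above the floor in every pool, 50.5% were lower. Floxed/deleted was the lowest of the 3 pools for 7 of the 18, against 34.1% of those probe sets. The median of the knockout minus the controls was -0.23, and 0.0027 with floxed/deleted as the only control.

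Single genes of that list stood apart in a control pool. Frem2 was 1.54-fold higher in floxed/deleted than in the nearer pool, and Fras1 was 1.82-fold higher in wild type/floxed. Both encode matrix proteins of the Fraser complex. On design C 2 other Fras1 probe sets were above the floor in the knockout alone. Smoc2, a calcium-binding matrix protein gene related to Sparc, was at least 2.21-fold lower in floxed/deleted on 1 probe set, while another had its highest signal there.

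Enzymes and chaperones that fold and modify collagen IV, laminin and heparan sulfate went both ways in the knockout, from a log2 difference of -0.38 to 0.86 from the controls, with a median of 0.07. All 16 genes with a probe set were measured, and 0 were 1.5-fold from both controls there, a count near the 6.44% higher and 5.68% lower over all genes. Mia3, which encodes an export receptor for large collagens, had 202 in the knockout with 136 and 131 in the controls on design A. Its probe set on design C did not show this, with 32.8, 240 and 50.2, and was above the floor in floxed/deleted alone. Serpinh1, which encodes the collagen chaperone Hsp47, had 907 in the knockout, 923 for floxed/deleted and 1085 for wild type/floxed. Hspa5, a general chaperone of the endoplasmic reticulum, had 2144, 1594 and 2623. The heparan sulfate polymerase gene Ext1 was 4.91-fold lower in wild type/floxed than in the nearer pool on design C. Its probe set on design A had 146, 158 and 171 and did not show this.

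Receptors for the basement membrane were measured for 11 of 14 genes, with a median of 0.20 in the knockout and 0.15 between the controls. In the knockout 2 were at least 1.5-fold above both controls and 1 as far below, against 6.44% and 5.68% of all genes. The integrin alpha 3 gene Itga3 was 1.56-fold higher in the knockout than in the nearer control (127 against 81.5 for floxed/deleted and 73.3 for wild type/floxed). The syndecan 2 gene Sdc2 was at least 1.62-fold higher, but was measured only through the knockout, so the filter fixed its place. Ddr2, a collagen receptor kinase, was 1.74-fold lower, with 58.9 against 102 and 121. In floxed/deleted, Itga7 was at least 1.86-fold and Sdc4 at least 1.52-fold higher than both others. These probe sets were measured only through floxed/deleted, so the filter fixed their place. Another Sdc4 probe set, on design A, was highest in the knockout (158.5 against 77.6 and 75.9). Itgb1, the beta chain shared by the laminin-binding integrins, had 968, 650.4 and 728.

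Genes of plasminogen activation, matrix proteolysis and coagulation, the setting of Plat and Thbd, were measured for 10 of 16 with a probe set. None was 1.5-fold from both controls in the knockout, against 6.44% and 5.68% of all genes. In floxed/deleted, 2 of the 10 were at least 1.5-fold above both others, against 7.49% of all genes. Plg, which encodes the substrate of tissue plasminogen activator, had 308.5 there against 73.3 in the knockout and 82.6 in wild type/floxed on design C, at least 3.73-fold higher than the nearer pool. A Plg probe set on design A was instead highest in the knockout, with 143 against 63.9 and 47.3. F3, tissue factor, was at least 1.61-fold higher in floxed/deleted on design B, with its other probe set below the floor. F3 was measured only through floxed/deleted, so the filter fixed its place in the count of 2. The metalloprotease inhibitor gene Timp3 was above the floor in wild type/floxed alone, at 86.1.

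Other markers used for parietal endoderm went both ways. Of 15 genes, 14 were measured, with 3 higher and 1 lower in the knockout by 1.5-fold, against 6.44% and 5.68% of all genes, and a median of 0.12. The summed signal of the 14 was 4294 in the knockout, 4087 for floxed/deleted and 4418 for wild type/floxed. Krt19, whose promoter drives Cre, stood 1.94-fold higher, Pga5 1.81-fold and the endocytic adaptor gene Dab2 1.56-fold. Fst, the activin antagonist follistatin, was 1.84-fold lower, with 154 against 364 and 283.

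The endoderm factors Gata4 and Gata6 had the order of pools of Col4a2 or close to it. Gata4 had 310.1 in the knockout, 142 for floxed/deleted and 244 for wild type/floxed on design B, and floxed/deleted was 1.72-fold below the nearer pool. On design A it had 106, 94.5 and 154.5. Gata6 had 148, 94.2 and 151 on its brightest probe set, with floxed/deleted 1.57-fold below, but 112, 174.5 and 57.2 on design C. Pdgfra was 1.85-fold higher and Snai1 1.62-fold lower in wild type/floxed.

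The other members of that list are given as well. Pth1r, the parathyroid hormone receptor, had 156 in the knockout, 129 for floxed/deleted and 146 for wild type/floxed. In the same order, Sox17 had 225, 346 and 291 on its brightest probe set and 190, 297 and 316 on another of design A. Krt8 had 992, 1226 and 1286, and Krt18 had 538, 559 and 582. Sox17 on these probe sets, Krt8 and Krt18 were lowest in the knockout, while Pth1r was highest there. On design C a Sox17 probe set had 94.7, 64.3 and 115.6, with the knockout between the controls. Vim was above the floor in the knockout alone, at 59.1. Sox7 was above the floor in floxed/deleted alone, at 61.4, Stra6 was below it in all pools, and Thbd and Plat were as given above. Other tissues of the embryo make the same laminin and collagen IV chains, and in these pools the sources cannot be told apart.

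Markers of other tissues are given because these tissues also make basement membrane. For visceral endoderm, 10 of 12 measured genes had their highest signal in the knockout, as Sparc had, against 33.4% of all measured genes. Of these, Afp and Trf were measured only through the knockout, so the filter fixed their place. Of the 12, 3 stood at least 1.5-fold above both controls (6.44% of all genes) and 0 as far below (5.68%), with a median of 0.43. Cubn and Amn, which encode the receptor complex cubilin and amnionless, had 3458 against 1656 and 2308, and 12922 against 6390 and 8806. The lowest value of Cubn and Amn was in floxed/deleted, as for Sparc, but not every gene of the list had this order. Floxed/deleted was lowest for 6 of the 12, against 34.1% of all probe sets above the floor in every pool. Afp and Trf, with both controls at the floor, could not be lowest there. The median difference between the controls was -0.02. Apoa1, Rbp4 and Ihh were instead lowest in wild type/floxed. In the knockout, Apoa1 was 2.19-fold, Trf at least 1.94-fold and Apoa4 1.90-fold higher than in the nearer control. The summed signal of the 12 was 36578 in the knockout, 18402 for floxed/deleted and 20934 for wild type/floxed. These sums are mostly Apoa1 on design B and Amn on design C. The part of visceral endoderm in the signals of Sparc, Lamb1 and Col4a2 was not tested.

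Endothelium, trophoblast and decidua contributed few measured markers. Of 8 endothelial genes 4 were measured, and Cdh5, Tek, Tie1 and Emcn were below the floor in all pools. The median was 0.07 in the knockout and -0.50 between the controls. Floxed/deleted was lowest for 3 of the 4, among them Eng at 249, 197 and 289. Of all probe sets above the floor in every pool, 34.1% were lowest there. Pecam1, also 1 of the 3, was below the floor in floxed/deleted, at 22.4. The summed signals were 621, 464 and 653, in the order of pools of Hspg2, and their part in the low floxed/deleted values was not tested. Trophoblast was measured by 3 of 7 genes with a probe set, and Tpbpa, Ctsq, Ctsj and Esx1 were below the floor. Ascl2 was at least 1.78-fold higher in wild type/floxed, the only pool through which it was measured. Their summed signals were 426, 499 and 432. Decidual genes were measured for 4 of 8. Prl8a2, a decidual prolactin gene, was above the floor in the knockout alone, at 102. Htra1 was 1.83-fold lower there and Des at least 1.72-fold higher. Their summed signals, 2068, 4001 and 3375, are mostly Htra1 on design C. On design A the knockout, at 120.0, lay between the controls for Htra1, above wild type/floxed at 73.5 and below floxed/deleted at 130.0.

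**Figure D3:**
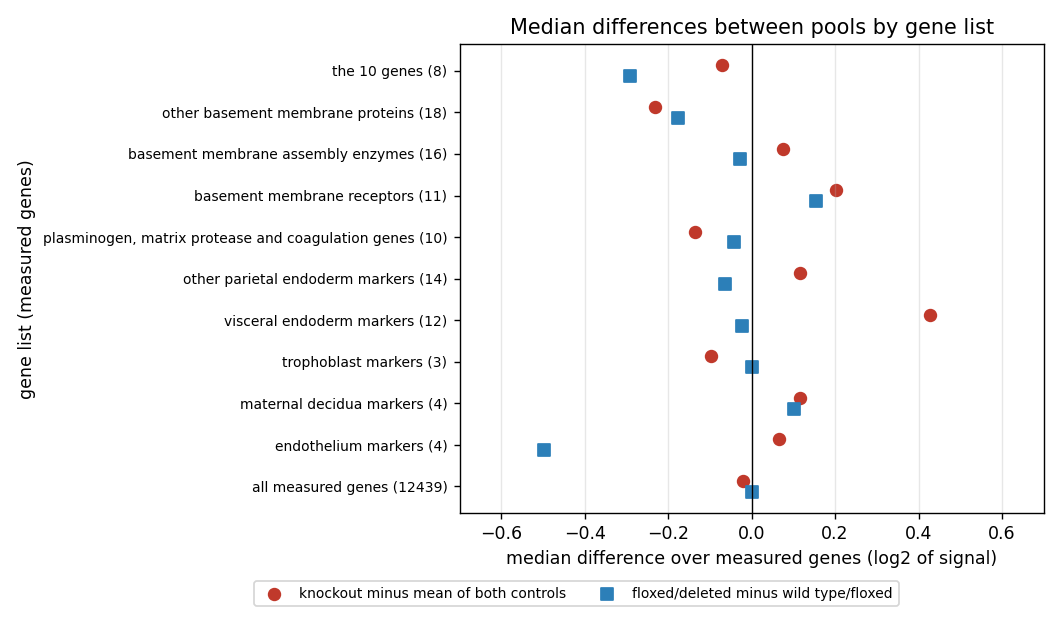
Median log2 difference over the measured genes of each list (number in brackets), 1 probe set per gene; circles are the knockout minus the mean of both controls and squares are floxed/deleted minus wild type/floxed. The 10 basement membrane and parietal endoderm genes, 8 of them measured, lie at -0.07 and -0.29, and visceral endoderm markers lie farthest right for the knockout at 0.43.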

How the data were processed

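The deposited values were linear intensity, 1 per probe set. Per the file headers the arrays were of 3 designs. The summary method and scaling target are not stated. Symbols came from the platform annotation, in which 29131 of 36701 probe sets have 1 symbol, 724 several and 6846 none. Only those with 1 symbol were named.

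Arrays were scaled within a design to equal trimmed means and floored at the design's median, and log2 was taken. The 198 control probe sets entered the scaling and floor only. A gene was represented by its measured probe set with the highest mean log2 value, which for Plat is that of design C. A gene stood apart at 1.5-fold from both other pools, and folds are against the nearer pool. "At least" marks a fold with 1 side at the floor. The 10 genes were named in full. From each list, genes standing apart were named, up to 4 per direction in the knockout and 2 in a control, with further genes of known role chosen after their values were seen. The genes and lists were chosen with earlier results of these data known. No test was run, since each group is 1 array per design, and precision is limited by that number of arrays. Counting was tested on simulated data. In all, 13 other settings were run, 1 of them added later, with Python 3.11.15, numpy 2.4.6 and pandas 2.3.3.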

Additional observations from a re-analysis of the deposited data

How the results depend on the processing

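The median difference between floxed/deleted and wild type/floxed over the genes was below 0 under all 10 alternatives run on it, from -0.39 to -0.25. The median of the knockout minus the controls ran from -0.18 to 0.10 over 12, the latter without probe sets marked for shared sequence or an incomplete probe choice, and changed sign in 4. Sparc stayed above the controls in all 12, from 0.65 to 1.41, and was the 1 gene counted as higher in the knockout in all but 1, the 2-fold threshold, which gave 0. The count lower in floxed/deleted was 0 at the 70th percentile floor and at 2-fold, and 2 with the mean over all measured probe sets (Sparc and Col4a2). The count higher in floxed/deleted, 0 as reported, was 1 (Plat) with the 30th percentile floor, on design A alone, without marked probe sets and when the probe set was chosen by signal before the floor, the last added after seeing the data. With no floor it was 2 (Plat and Thbd), and the count lower in wild type/floxed was then 1 (Thbd). Of 94 values of single genes, 90 moved by less than the standard deviation between the controls and 4 by more. These were Lamb1, at 0.56 with the mean over probe sets and 0.49 without marked ones against -0.06, and Plat, at -1.04 with the 30th percentile floor and with none, against -0.11. Of the medians over the other 9 lists, those of receptors (0.06 to 0.32) and visceral endoderm (0.40 to 0.61) kept their sign under all 12 settings. The other 7 changed sign under at least 1, among them assembly enzymes (-0.08 to 0.17), plasminogen and coagulation genes (-0.14 to 0.09), other parietal endoderm markers (-0.05 to 0.19) and decidua (-0.98 to 2.22). No paired analysis was possible because each genotype had 1 array per design.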
